A study of Mus musculus with 21 samples.

Results

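The collagen genes and 7 small leucine-rich proteoglycan genes were followed across neurons made from mouse embryonic stem cells. Members were all genes whose symbol starts with Col and a digit, together with Dcn, Lum, Bgn, Fmod, Prelp, Ogn and Omd. These were 42 collagens and 7 proteoglycans, so 49 of the 18193 named genes on the Affymetrix mouse expression array. Where several probe sets read a gene, the one with the largest SD over the 21 arrays stood for it. The 49 members were read by 99 probe sets, and 17 of them by a single one.

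There were 7 groups of 3 arrays, and the titles call the arrays of a group biological replicates. The NesE-Lmx1a line, labelled as giving mesencephalic dopaminergic neurons, was grown with SHH and FGF8 and taken at day 10 and at day 14. The NesE-Nkx2.2 line, labelled serotonergic, was taken at day 10 after SHH with either FGF8 or RA (retinoic acid). The NesE-Olig2 line, labelled as somatic motoneurons, was taken at day 8 after SHH and RA. Wild-type neurons served as controls and were taken at day 10 under FGF8 or at day 8 under RA. The labels disagree on whether the wild-type cultures also received SHH: the titles name it and the source names do not, so any effect of the line cannot be told apart from one of SHH against wild type. In the Nkx2.2 comparison under RA, line and day (10 against 8) cannot be told apart, and the same holds for treatment and day between the wild types. NesE is not spelled out in the labels, which name 1 line per factor and do not say how many clones it stands for. RNA came from post-mitotic neurons that the labels call purified.

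Collagens are triple-helical proteins of the extracellular matrix. Fibrillar collagens form the fibres of connective tissue and cartilage, network collagens form sheets such as the basement membrane, and fibril-associated collagens decorate other fibrils. Small leucine-rich proteoglycans such as decorin bind fibrils and growth factors. Most of these genes are best known from mesenchymal cells (fibroblasts, cartilage and meninges), but some, such as the transmembrane collagen Col25a1, are made by neurons, and the basement membrane around the neural tube holds collagen IV.

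The deposited values are log2 signals from which the authors' table has removed each probe set's median over 27 arrays, of which 21 were analysed here. A value of 0 is therefore the middle of those arrays and says nothing of how strongly a gene was expressed, and no gene's level was set against another's. Differences between groups are log2 differences with their standard error from a limma fit over all 21 arrays, and 1 log2 unit is a 2-fold change. A member was called where the Benjamini-Hochberg adjusted p over all 18193 genes was under 0.05 and the difference was at least 1 log2 unit.

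The members were among the more variable genes of the array. Of the 49, 27 (55.1%) spanned at least 4 log2 units over the 21 arrays, against 8.91% of all genes, and 40 (81.6%) spanned at least 1 log2 unit, against 62.8% of all genes. The other 9 (Col10a1, Col17a1, Col24a1, Col4a3, Col4a4, Col5a3, Col6a4, Col6a5 and Omd) spanned 0.13 to 0.62 log2 units. In these bulk samples, fewer cells of a type and less RNA per cell cannot be told apart.

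**Figure D1:**
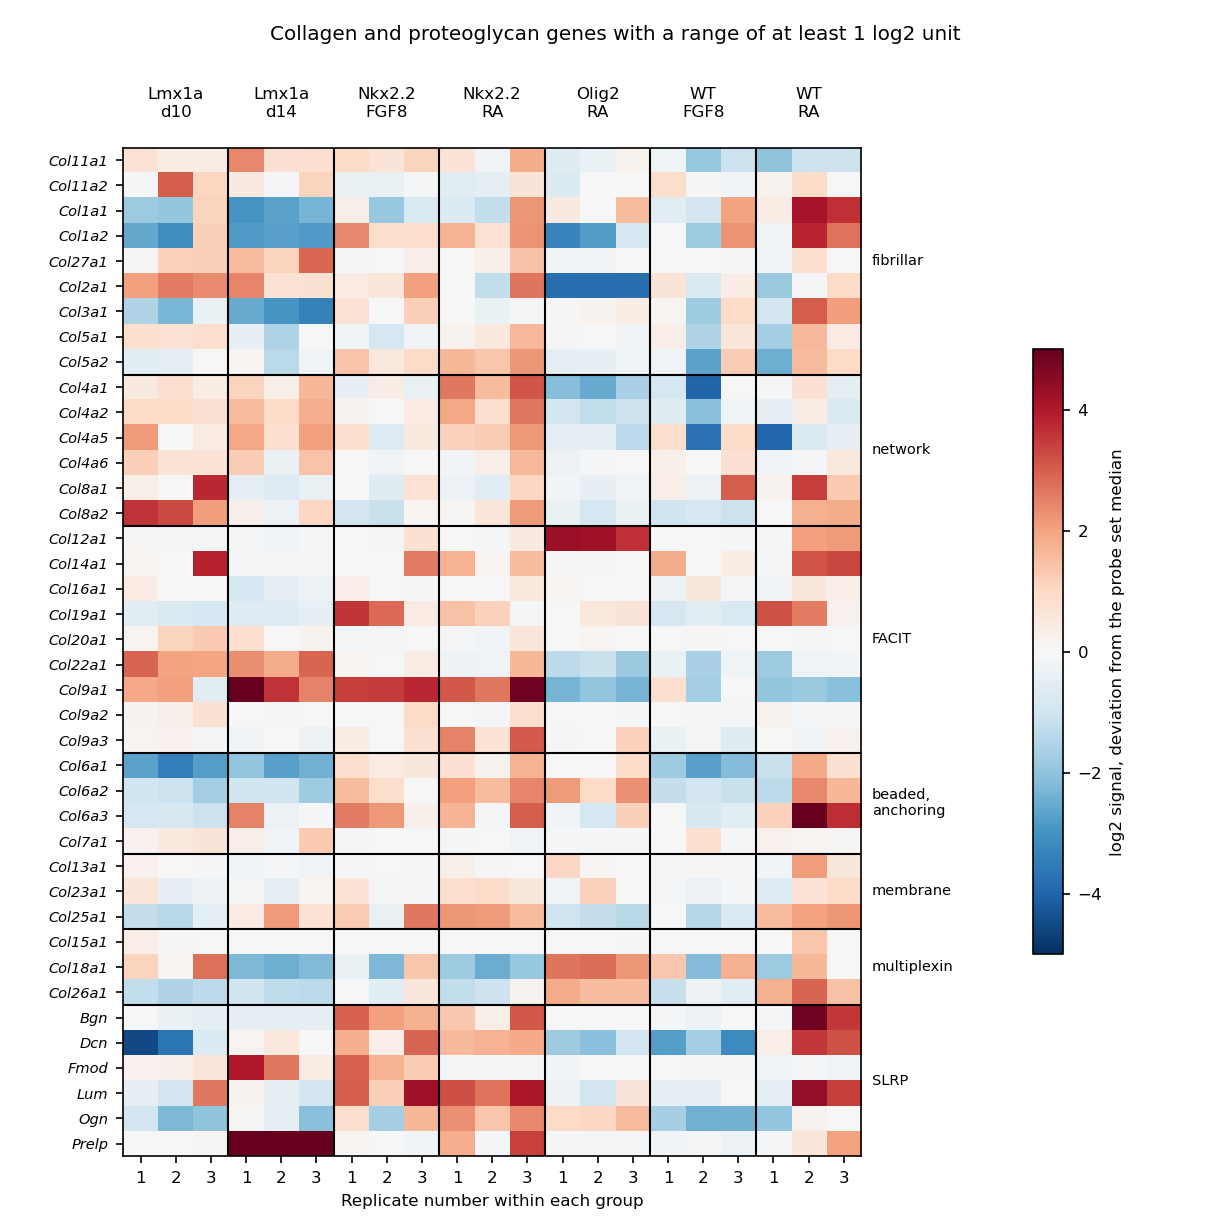
Log2 deviation from each probe set's median (colour, limits of 5 either side of 0) for the 40 members that spanned at least 1 log2 unit, in rows, over the 21 arrays in columns by group. Col9a1 is high in both Nkx2.2 groups and the Lmx1a line at day 14, Prelp in the Lmx1a line at day 14, and many members are higher in replicates 2 and 3 of the RA wild type than in replicate 1.

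Single arrays stood apart for these genes. In the RA wild type, 21 of the 49 members lay over 1 log2 unit above the mean of the other 2 replicates in replicate 2, against 2.63% of all genes, and 23 lay over 1 below in replicate 1, against 6.01%. Of 22 measured mesenchymal and fibroblast markers, 13 lay over 1 above in that same replicate 2. The third Nkx2.2 array under RA also had 21 members over 1 above, against 9.10% of all genes, and 8 of the 22 mesenchymal markers. In the FGF8 wild type, 16 members lay over 1 below in replicate 2 (7.32% of all genes), and 10 members and 10 of the 22 markers lay over 1 above in replicate 3 (5.57% of all genes). A hybridisation control on the arrays, bioC, split the 21 arrays into 9 at -2.75 to -1.27 and 12 at -0.15 to 0.65. The day 10 arrays of the Lmx1a line were among the 9 and those of both Nkx2.2 groups among the 12, so this technical split moved with line; the labels name no batch. The mean deviation of 12 pan-neuronal markers was lowest in the Nkx2.2 line under RA, at -1.13 to -0.74 per array, against -0.03 to 0.13 in the RA wild type, and 5 of the 12 were lower there, Rbfox3 by -3.43 and Tubb3 by -1.33 among them. Because values are centred, the presence of neuronal markers in each group could not be checked.

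Between lines and wild types, 3 to 9 members were called. Against the FGF8 wild type, 3 members were higher in the Lmx1a line at day 10 and none lower; of all genes 3.31% were called, 1.96% higher and 1.36% lower. Under FGF8 the Nkx2.2 line had 5 higher and none lower, against 4.53% of all genes called, 2.83% higher and 1.71% lower. The Olig2 line had 1 higher and 6 lower than the RA wild type, against 10.4% of all genes called, 5.50% higher and 4.85% lower. Under RA the Nkx2.2 line had 7 higher and 2 lower, against 18.0% of all genes called, 8.84% higher and 9.16% lower. These last 9 members are 18.4% of the 49, so their share lay at the level of the array as a whole. The RA wild type had 9 members higher than the FGF8 wild type and none lower, which is 18.4% of members; of all genes 7.40% were called, 4.29% higher and 3.11% lower.

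Among the lines, the Lmx1a line had 1 member higher and 1 lower at day 14 than at day 10, against 4.24% of all genes, 2.96% higher and 1.28% lower. Between treatments, 1 member was higher under RA than under FGF8 in the Nkx2.2 line, against 4.31% of all genes, 2.66% higher and 1.65% lower. Under FGF8 that line had 5 higher and 2 lower than the Lmx1a line at day 10, against 5.07% of all genes, 2.87% higher and 2.2% lower. The difference of the Nkx2.2 line from wild type itself differed between RA and FGF8 for 3 members, all lower under RA, against 4.38% of all genes, 1.78% higher and 2.60% lower. Comparisons that use the same wild-type or line arrays share them and are not independent. Where limma called no member lower, an unadjusted p under 0.05 was reached by 0 lower members in both FGF8 comparisons with wild type and between the wild types, and by 1 in the Nkx2.2 line between RA and FGF8; no member was higher in the difference of effects, and 0 reached it there. In all, 20 members were called at least once.

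The calls differ in how far they depend on single arrays. Of the 46 calls, 22 were kept without each single array in turn and 24 were lost without at least 1. Without replicate 1 of the RA wild type, the array with low members, 10 members were called in the Olig2 line and 12 between the wild types; without replicate 2, with high members, 4 and 4. In fits of only the arrays compared, 12 of the 46 calls were kept. With the bioC split as a term in the fit, 28 of the 46 calls were kept. The 18 lost (adjusted p 0.0526 to 0.161) were all 4 calls of Col19a1, both of Bgn and of Col6a3, Col1a2 in the Olig2 line, Col11a1 in the Nkx2.2 line under FGF8, Col12a1 outside the Olig2 line, Col8a2 between the wild types, Dcn in the difference of effects, and Col22a1, Col25a1, Col26a1 and Dcn between the Nkx2.2 and Lmx1a lines. Their differences kept much of their size, such as 2.88 for Col19a1 in the Nkx2.2 line under FGF8, -2.75 for Bgn in the Olig2 line, 3.73 for Col6a3 between the wild types and 4.74 for Dcn between the lines, while that of Col1a2 went from -4.44 to -3.27. Within the 12 arrays alone, which hold 1 Olig2 array and 1 FGF8 wild-type array, 0 members were called in the Olig2 line and between the wild types, 1 in the Nkx2.2 line under FGF8 and 6 under RA, and no call changed direction. Of the 9 arrays, all from groups other than the Nkx2.2 line and RA wild type, 2 members were called in the Lmx1a line at day 10 against wild type and 3 between its days.

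**Figure D2:**
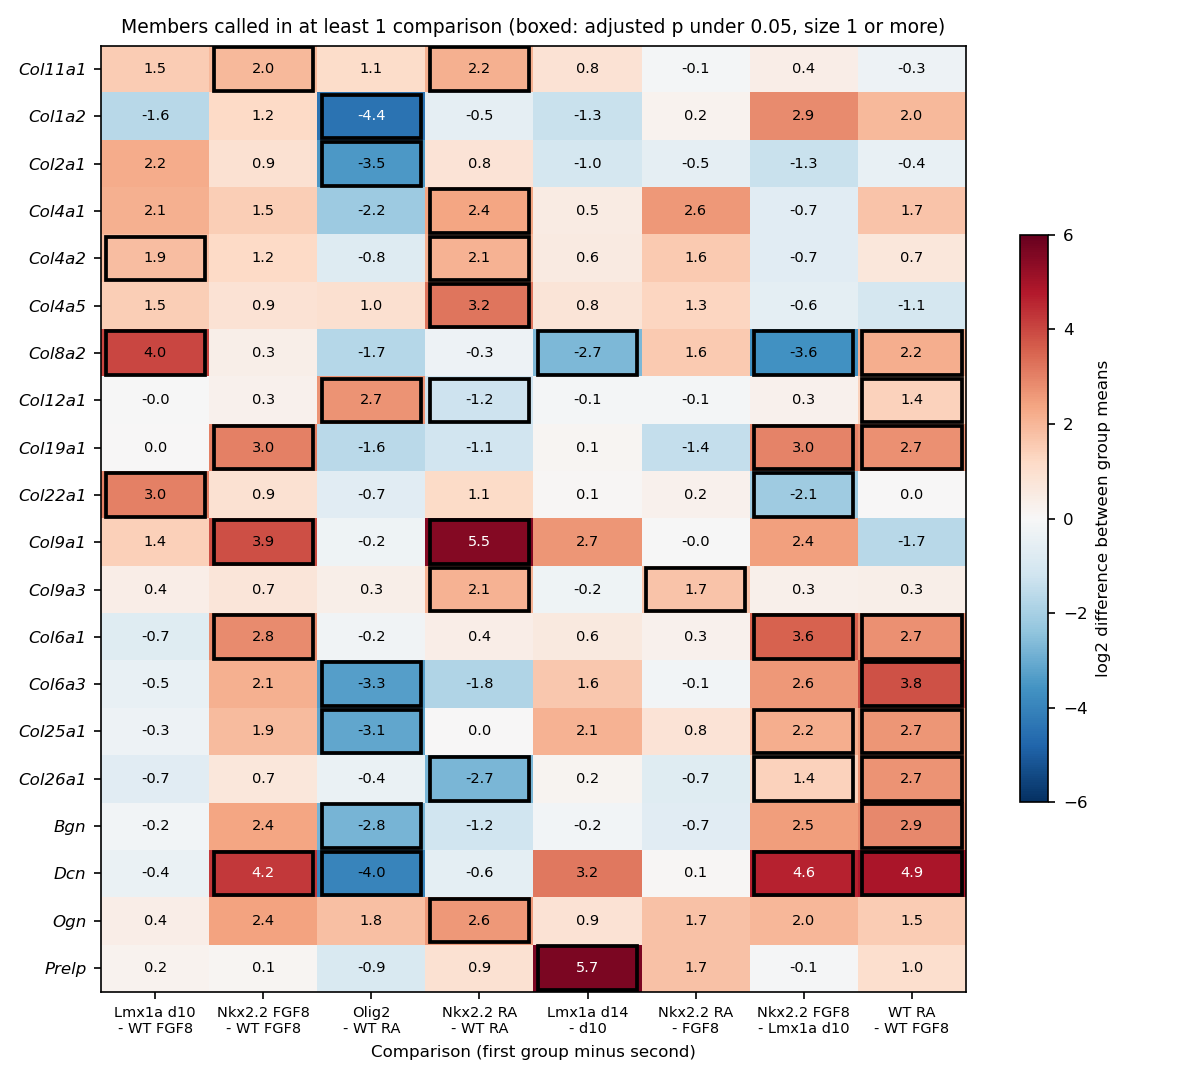
Log2 difference (colour) of the 20 members called at least once, in rows, in the 8 comparisons between groups, in columns; boxes mark calls. Col9a1 is called in both comparisons of the Nkx2.2 line with wild type, Col12a1 is the 1 member higher in the Olig2 line, and Dcn is called in 4 comparisons in both directions.

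Fibril-associated collagens held the largest called difference from wild type. Col9a1 codes for a chain of collagen IX, which sits on cartilage fibrils of collagen II. Its 300-base start window (250 bases before to 50 after the annotated start, RefSeq, GRCm38.p6, chr1:24177360-24177659, plus strand) is shown because Col9a1 was called in the Nkx2.2 line under both treatments. RefSeq's table holds 2 windows for the gene, and this is 1 of them. It holds no match on either strand to the TATA box (TATAAA), the CCAAT box or the GC box (GGGCGG), so no letter is in capitals.
Col9a1: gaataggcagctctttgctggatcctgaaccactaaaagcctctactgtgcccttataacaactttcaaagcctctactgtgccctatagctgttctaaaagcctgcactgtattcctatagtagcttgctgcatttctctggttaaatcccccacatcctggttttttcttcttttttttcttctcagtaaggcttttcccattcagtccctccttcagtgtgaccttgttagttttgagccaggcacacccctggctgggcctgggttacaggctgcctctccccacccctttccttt
For comparison, TATAAA was found in 13.6%, CCAAT in 37.4% and GGGCGG in 35.7% of all 32851 such windows, and in 6, 15 and 23 of the 41 windows of the 38 members that matched. A match is a description of letters only.

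Col9a1 stood at 3.47, 3.50 and 3.77 in the Nkx2.2 line under FGF8 and at 3.11, 2.65 and 4.87 under RA. The FGF8 wild type had 0.82, -1.69 and 0.00, the RA wild type -1.99, -1.84 and -2.09, and the Olig2 line -2.34, -1.98 and -2.33. All 6 arrays of the Nkx2.2 line lay above all 6 wild-type arrays. Col9a1 rose by 3.87 ± 0.80 (SE; adjusted p = 0.00803) under FGF8 and by 5.52 ± 0.80 (adjusted p = 0.00011) under RA. A second probe set was also called, at 2.21 and 2.69. The difference between these 2 effects, 1.65 ± 1.13, was not called (adjusted p = 0.521). The Lmx1a line stood at 1.89, 2.06 and -0.55 at day 10 and at 5.29, 3.63 and 2.49 at day 14, groups that did not overlap, yet the difference of 2.67 ± 0.80 missed the threshold (adjusted p = 0.0588). Both Col9a1 calls were kept without any single array, but under FGF8 the call was lost in a fit of only the arrays compared (adjusted p = 0.053) and without 3 arrays together (Lmx1a day 10 replicate 1, FGF8 wild-type replicate 2 and Nkx2.2 FGF8 replicate 1; 3.22, adjusted p = 0.0643).

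The other chains of collagen IX did not move with Col9a1 throughout. Col9a3 stood at 2.49, 0.68 and 3.08 in the Nkx2.2 line under RA and at -0.04, -0.13 and 0.20 in the RA wild type. It rose by 2.07 ± 0.46 (adjusted p = 0.00285) against that wild type. Its 1.70 ± 0.46 rise against the same line under FGF8 (adjusted p = 0.035) came from overlapping groups, and was lost without any of replicates 1 and 3 under RA or 1 and 2 under FGF8 (1.2 to 1.69, adjusted p 0.0856 to 0.126). Another probe set of Col9a3 gave 0.45 against wild type (adjusted p = 0.77). Col9a2 was called in no comparison and differed by 0.24 ± 0.25 (adjusted p = 0.677) in the Nkx2.2 line under RA and 0.34 ± 0.25 (adjusted p = 0.574) under FGF8.

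Col12a1, a fibril-associated collagen of tendon and other dense connective tissue, was the 1 member higher in the Olig2 line. It stood there at 4.32, 4.25 and 3.65. Replicates 2 and 3 of the RA wild type, at 2.04 and 2.14, were the next highest, while replicate 1 lay at -0.11 and the other 15 arrays at -0.23 to 0.78. Col12a1 rose by 2.72 ± 0.43 in the Olig2 line (adjusted p = 0.000524), without overlap, and a second probe set by 2.35. The call was kept without any single array but lost in a fit of only the arrays compared (adjusted p = 0.0652). Both smaller calls below rest on the same RA wild-type arrays. Col12a1 fell by 1.22 in the Nkx2.2 line under RA (SE 0.43, adjusted p = 0.0447) and rose by 1.38 ± 0.43 in the RA over the FGF8 wild type (adjusted p = 0.0479), each with overlapping groups. The first was lost without any of Nkx2.2 replicates 1 and 2 or wild-type replicates 2 and 3 (-1.17 to -0.83, adjusted p 0.113 to 0.207). The second was lost without RA replicate 2 or 3 or any FGF8 replicate (0.99 to 1.39, adjusted p 0.0818 to 0.21), and the second probe set gave -0.23 and 0.18 for them.

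Col22a1, a collagen of tissue junctions such as that between muscle and tendon, was high in the Lmx1a line. It stood at 2.92, 2.02 and 1.98 at day 10 and at 2.34, 1.84 and 2.93 at day 14, while all other arrays lay at -1.87 to 1.65. Against the FGF8 wild type (-0.34, -1.62 and -0.23) it rose by 3.03 ± 0.55 (adjusted p = 0.00481) at day 10, and a second probe set by 3.07. Days 14 and 10 differed by 0.06 ± 0.55 (adjusted p = 0.949). The Nkx2.2 line under FGF8 was lower than the Lmx1a line at day 10 by -2.14 ± 0.55 (adjusted p = 0.0259). That call was lost without any of Nkx2.2 replicates 1 and 2 or Lmx1a replicate 1 (-2.11 to -1.83, adjusted p 0.0741 to 0.0872), whereas the call against wild type was lost only, of the settings tried, in a fit of just the arrays compared (adjusted p = 0.0705) and without the 3 arrays named for Col9a1 (2.28, adjusted p = 0.0729).

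Col19a1, a fibril-associated collagen found in basement membrane zones, gave a different order. It stood at 3.59, 2.83 and 0.40 in the Nkx2.2 line under FGF8 and at 3.19, 2.57 and 0.22 in the RA wild type. In both groups replicate 3 was far below the other 2. The FGF8 wild type lay at -0.84 to -0.58 and the Nkx2.2 line under RA at 1.45, 1.15 and -0.04. Col19a1 rose by 3.01 ± 0.73 in the Nkx2.2 line under FGF8 (adjusted p = 0.0212), and the line's difference from wild type was -4.14 ± 1.03 lower under RA than under FGF8 (adjusted p = 0.0312). It also rose by 2.72 ± 0.73 between the wild types (adjusted p = 0.0247) and by 2.98 ± 0.73 over the Lmx1a line at day 10 (adjusted p = 0.0207). All 4 calls depended on single arrays: the FGF8 call was lost without Nkx2.2 replicate 1 or 2 or wild-type replicate 1 or 3 (2.35 to 2.98, adjusted p 0.0681 to 0.124), that between the wild types without RA replicate 1 or 2 or FGF8 replicate 1 or 3 (2.13 to 2.7, adjusted p 0.0732 to 0.12), and that over the Lmx1a line without Nkx2.2 replicate 1 or 2 or Lmx1a replicate 2 or 3 (2.32 to 2.98, adjusted p 0.0516 to 0.106). The difference of effects was lost without any of these FGF8 arrays of Nkx2.2 and wild type, RA wild-type replicate 1 or 2, or Nkx2.2 replicate 2 or 3 under RA (-4.29 to -3.48, adjusted p 0.0514 to 0.0801), and Col19a1's other probe sets gave 0.75 and 0.09 in the Nkx2.2 line under FGF8.

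**Figure D3:**
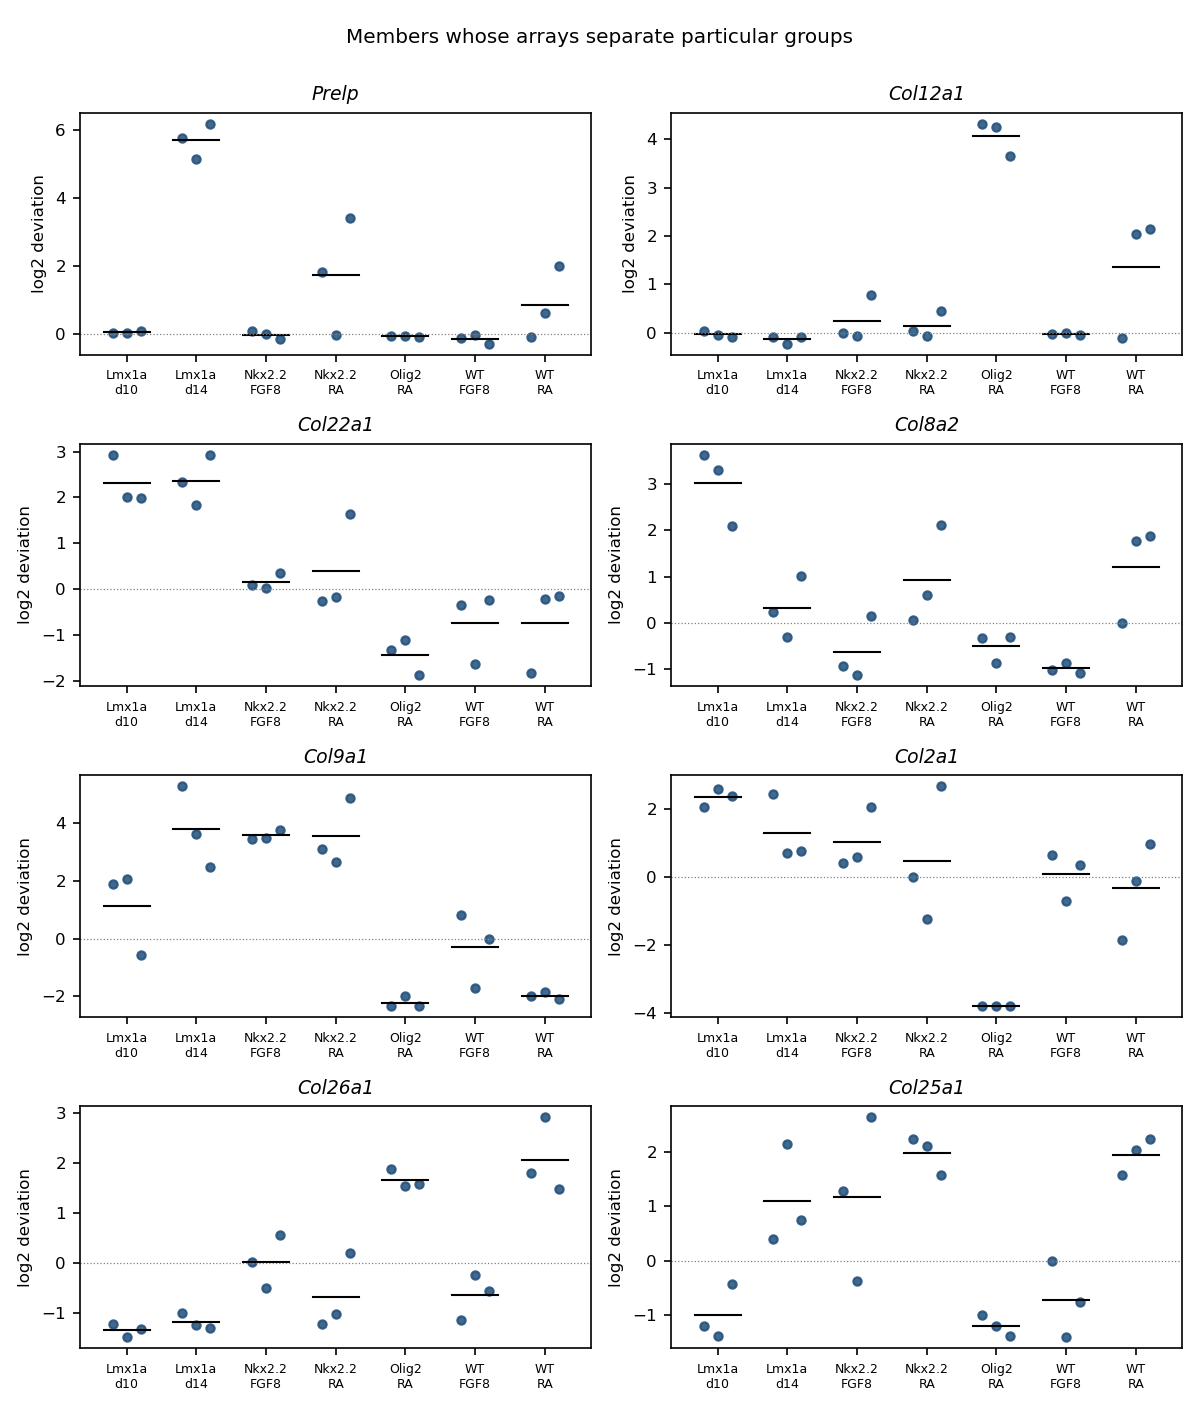
Log2 deviation of Prelp, Col12a1, Col22a1, Col8a2, Col9a1, Col2a1, Col26a1 and Col25a1 in each array (points) with the group mean (bar), by group. The 3 Olig2 arrays of Col12a1 lie at 3.65 to 4.32 and the 3 day 14 arrays of Prelp at 5.16 to 6.18, above all other arrays.

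Of the 9 network collagens, 3 rose in the Nkx2.2 line under RA, all chains of collagen IV; the median difference of the 9 was 0.02, against 0.01 over all genes. Col4a1 and Col4a2 code for the 2 chains of the common basement membrane collagen IV and lie head to head on chromosome 8 with a shared promoter. Their RefSeq start windows (GRCm38.p6) are shown because the 2 genes were called together; Col4a1 is on the minus strand (chr8:11312777-11313076) and Col4a2 on the plus strand (chr8:11312555-11312854). Capitals mark the 78 bases the windows share (chr8:11312777-11312854), read on opposite strands.
Col4a1: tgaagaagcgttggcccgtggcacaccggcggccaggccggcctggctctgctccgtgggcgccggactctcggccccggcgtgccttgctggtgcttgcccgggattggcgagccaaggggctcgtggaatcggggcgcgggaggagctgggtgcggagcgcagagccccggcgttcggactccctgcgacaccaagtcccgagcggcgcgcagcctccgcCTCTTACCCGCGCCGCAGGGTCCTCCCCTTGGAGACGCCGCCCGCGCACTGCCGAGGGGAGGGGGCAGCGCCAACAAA
Col4a2: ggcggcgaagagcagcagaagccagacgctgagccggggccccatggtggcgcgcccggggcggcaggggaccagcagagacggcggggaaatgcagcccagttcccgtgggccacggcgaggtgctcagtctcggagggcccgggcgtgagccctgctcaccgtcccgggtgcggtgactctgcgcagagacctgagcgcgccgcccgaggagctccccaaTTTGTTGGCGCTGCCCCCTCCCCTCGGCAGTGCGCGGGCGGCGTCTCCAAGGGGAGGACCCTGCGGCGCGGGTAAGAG

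Col4a1 stood at 2.64, 1.59 and 3.13 in the Nkx2.2 line under RA and at -0.08, 0.77 and -0.44 in the RA wild type, without overlap. Col4a2 stood at 1.93, 0.82 and 2.62 there and at -0.50, 0.38 and -0.74 in the wild type. Col4a1 rose by 2.37 ± 0.75 (adjusted p = 0.0266; a second probe set by 2.2) and Col4a2 by 2.08 ± 0.47 (adjusted p = 0.00336). Col4a5, an X-linked chain of specialised basement membranes, rose by 3.23 ± 1.11 (adjusted p = 0.0404), from -3.98, -0.72 and -0.43 to 1.14, 1.26 and 2.17. Its X-chromosome neighbour Col4a6 differed by 0.51 ± 0.43 (adjusted p = 0.527), and Col4a3 and Col4a4 were among the 9 flat members. The Col4a1 call was lost without any of replicates 1 and 3 of either group (2.03 to 2.29, adjusted p 0.0748 to 0.0951), and the Col4a5 call without any Nkx2.2 replicate or wild-type replicate 1 (2.10 to 3.42, adjusted p 0.0703 to 0.216).

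In the Lmx1a line at day 10, Col4a2 stood at 0.97, 0.95 and 0.75, above the FGF8 wild type (-0.60, -2.11 and -0.21), and rose by 1.86 ± 0.47 (adjusted p = 0.0333). Col4a1 differed by 2.15 ± 0.75 and was not called (adjusted p = 0.132). The Col4a2 call was lost without any day 10 replicate or wild-type replicate 1 or 2 (1.30 to 2.05, adjusted p 0.0555 to 0.0981). In the Olig2 line both genes lay below 0 on every array, Col4a1 at -2.52 to -1.61 and Col4a2 at -1.25 to -0.92. Neither was called there against the RA wild type (Col4a1 -2.17 ± 0.75, adjusted p = 0.0614).

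Col8a2, a short-chain collagen of sheets under endothelia such as that of the cornea, was highest in the Lmx1a line at day 10. It stood there at 3.63, 3.31 and 2.10, above the FGF8 wild type (-1.01, -0.86 and -1.08), and rose by 4.0 ± 0.59 (adjusted p = 0.00109). At day 14 it stood at 0.24, -0.30 and 1.02, a fall of 2.69 on the log2 scale (SE 0.59, adjusted p = 0.0116). The Nkx2.2 line under FGF8 was lower than the Lmx1a line at day 10 by -3.65 ± 0.59 (adjusted p = 0.00202), and neither pair of groups overlapped. The RA wild type (0.00, 1.77 and 1.87) lay above the FGF8 wild type by 2.2 ± 0.59 (adjusted p = 0.0243). That last call was lost without any of RA replicates 2 and 3 or FGF8 replicates 1 and 3 (1.87 to 2.19, adjusted p 0.0717 to 0.105), and the day 14 call without day 14 replicate 2 (-2.39, adjusted p = 0.0566).

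**Figure D4:**
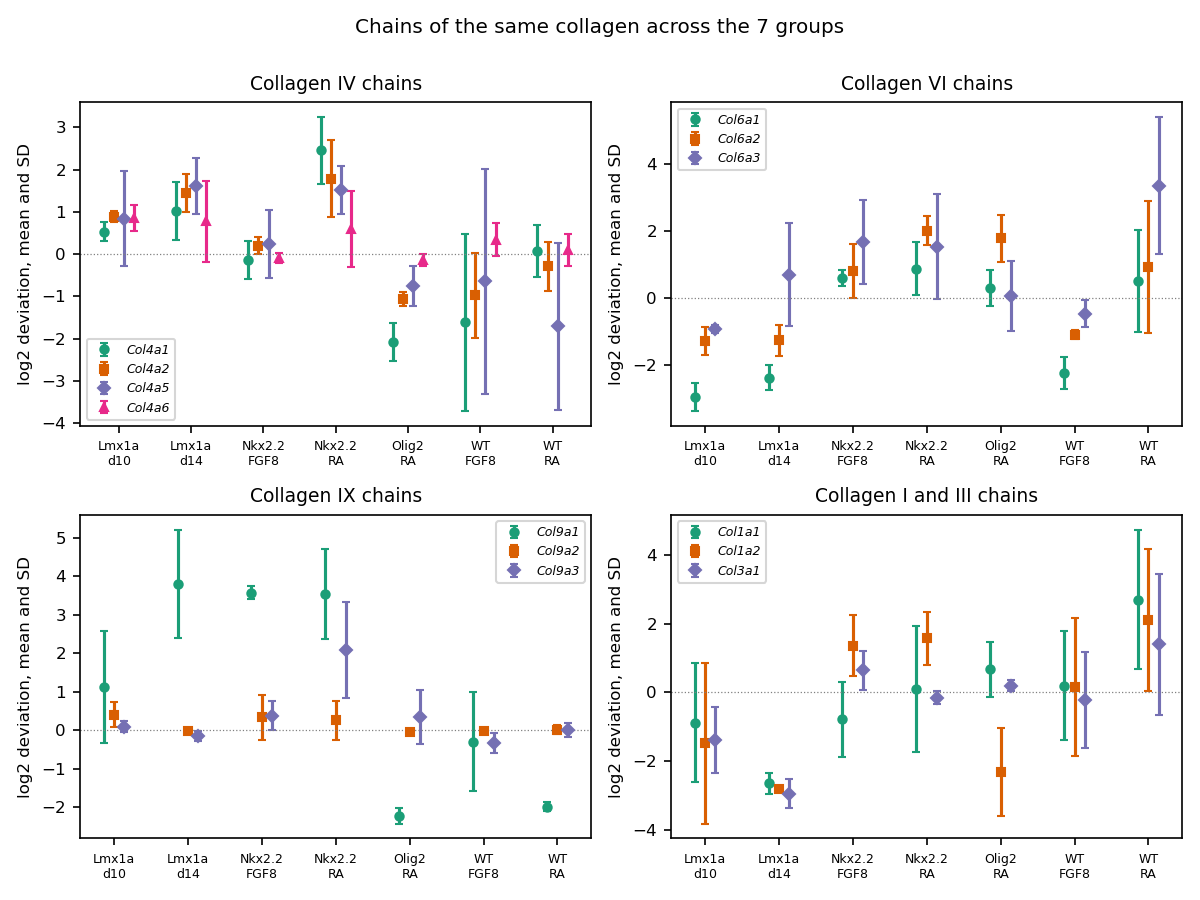
Group mean and SD (3 arrays a group) of the log2 deviation for chains of collagen IV, VI and IX, and of collagens I and III together. Col4a1 and Col4a2 are highest in the Nkx2.2 line under RA and lowest in the Olig2 line, while group means span -0.03 to 0.41 for Col9a2 and -2.21 to 3.80 for Col9a1.

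Among fibrillar collagens, Col2a1 marked the Olig2 line by its low values. Col2a1, the main collagen of cartilage, is also made in the notochord and parts of the neural tube. It stood at -3.79, -3.78 and -3.78 in the Olig2 line and at -1.85, -0.10 and 0.97 in the RA wild type, and fell by 3.46 (SE 0.86, adjusted p = 0.0118). All other arrays lay at -1.85 or above. The 3 Olig2 values were nearly equal (SD 0.01), and whether they lie at the lower limit of the probe set was not tested. The Lmx1a line at day 10 had 2.06, 2.58 and 2.38, all above the FGF8 wild type (0.66, -0.72 and 0.35), but the difference of 2.24 ± 0.86 was not called (adjusted p = 0.184).

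Col11a1, which forms the core of cartilage fibrils with collagen II, was called in both Nkx2.2 comparisons with wild type. It stood at 0.94, 0.66 and 1.10 under FGF8 and at 0.68, -0.19 and 1.85 under RA. The wild types lay at -1.89 to -0.22 under FGF8 and at -2.01 to -1.05 under RA, below every Nkx2.2 array of the same treatment. Col11a1 rose by 1.96 ± 0.53 (adjusted p = 0.036) and 2.15 ± 0.53 (adjusted p = 0.00602). A second probe set gave 1.10 and 1.16, neither called. The FGF8 call was lost without any Nkx2.2 replicate or wild-type replicate 2 or 3 (1.54 to 2.08, adjusted p 0.0715 to 0.119).

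Col1a1 and Col1a2 code for the 2 chains of collagen I, the main fibre of connective tissue, and Col3a1 for its frequent partner. Col1a2 stood at -3.30, -2.80 and -0.88 in the Olig2 line and at -0.19, 3.82 and 2.72 in the RA wild type, and fell by 4.44 (SE 1.22, adjusted p = 0.0203), without overlap. Col1a1 differed by -2.04 ± 1.15 (adjusted p = 0.292) and Col3a1 by -1.21 ± 0.82 (adjusted p = 0.419). The 2 chains of 1 molecule therefore did not pass together, and neither Col1a1 nor Col3a1 was called in any comparison. The Col1a2 call was lost without any of Olig2 replicates 1 and 2 or wild-type replicates 2 and 3 (-4.20 to -3.59, adjusted p 0.0576 to 0.101). Its wild-type values moved with the mesenchymal marker mean, which was -0.19, 1.72 and 1.11 in the same 3 arrays; their part in the fall was not tested.

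Collagen VI forms beaded filaments around cells and is built from Col6a1, Col6a2 and Col6a3. Col6a1 stood at 0.87, 0.40 and 0.57 in the Nkx2.2 line under FGF8, at -1.76, -2.72 and -2.18 in the FGF8 wild type and at -2.66, -3.43 and -2.74 in the Lmx1a line at day 10. It rose by 2.84 ± 0.58 over that wild type (adjusted p = 0.00781) and by 3.56 ± 0.58 over the Lmx1a line (adjusted p = 0.00221), with no overlap. The RA wild type (-1.13, 1.89 and 0.75) lay above the FGF8 wild type by 2.73 ± 0.58 (adjusted p = 0.00727). Col6a1 was low on all 9 arrays of the Lmx1a line and the FGF8 wild type, which lay at -3.43 to -1.76, and all 12 others lay at -1.13 or above. These 3 calls were kept without any single array. The call over the FGF8 wild type was lost without the 3 arrays named for Col9a1 (2.46, adjusted p = 0.0841). That between the wild types was lost in a fit of only the arrays compared (2.73, adjusted p = 0.135).

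Col6a2 followed a like order without a call in these comparisons: 1.90 ± 0.71 (adjusted p = 0.134) in the Nkx2.2 line under FGF8 and 2.01 ± 0.71 (adjusted p = 0.0808) between the wild types. Col6a3 stood at 1.16, 5.20 and 3.71 in the RA wild type, at 0.00, -0.79 and -0.58 under FGF8 and at -0.12, -0.86 and 1.2 in the Olig2 line. It rose by 3.81 ± 1.02 between the wild types (adjusted p = 0.0246) and fell by 3.28 in the Olig2 line (SE 1.02, adjusted p = 0.038, with overlap at the lowest wild-type array). Between the wild types the call was lost without RA replicate 2 or 3 or any FGF8 replicate (2.89 to 4.04, adjusted p 0.0555 to 0.126). In the Olig2 line it was lost without any of Olig2 replicates 1 and 2 or wild-type replicates 2 and 3 (-3.19 to -2.36, adjusted p 0.0915 to 0.183).

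Col25a1, a transmembrane collagen of neurons needed for motor innervation of muscle in the mouse, was not high in the motoneuron line. It stood at -1.0, -1.21 and -1.38 in the Olig2 line and at 1.58, 2.03 and 2.23 in the RA wild type, and fell by 3.14 (SE 0.61, adjusted p = 0.0024). The FGF8 wild type had 0.00, -1.41 and -0.76, and the RA wild type lay above it by 2.67 ± 0.61 (adjusted p = 0.0107). The Nkx2.2 line stood at 2.23, 2.11 and 1.58 under RA, over the same range as the RA wild type, and at 1.27, -0.38 and 2.63 under FGF8. Under FGF8 it lay above the Lmx1a line at day 10 by 2.18 ± 0.61 (adjusted p = 0.0366), a call lost without any of Nkx2.2 replicates 1 and 3 or Lmx1a replicates 1 and 2 (1.45 to 2.13, adjusted p 0.076 to 0.124). The other Col25a1 calls were kept without any single array, but that between the wild types was lost without the 3 arrays named for Col9a1 (2.32, adjusted p = 0.0528).

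Col26a1, a less studied collagen with an EMI domain, separated the RA groups. It stood at 1.79, 2.91 and 1.47 in the RA wild type and at 1.87, 1.54 and 1.57 in the Olig2 line, but at -1.22, -1.02 and 0.19 in the Nkx2.2 line under RA. All other arrays lay at -1.50 to 0.56. Col26a1 fell by 2.74 in the Nkx2.2 line under RA (SE 0.39, adjusted p = 9.78e-05) and rose by 2.71 ± 0.39 between the wild types (adjusted p = 0.000502). The line's difference from wild type was lower under RA than under FGF8 by -3.41 ± 0.55 (adjusted p = 0.00275). The second probe set of Col26a1 stayed at -0.20 to 0.07 in all these comparisons, so each call rests on 1 probe set. The 1.37 ± 0.39 rise of the Nkx2.2 line under FGF8 over the Lmx1a line at day 10 (adjusted p = 0.042) was lost without any of Nkx2.2 replicates 1 and 3 or any Lmx1a replicate (1.10 to 1.43, adjusted p 0.0594 to 0.132).

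Col18a1, whose C-terminal fragment is endostatin, was not called, although all 3 Olig2 arrays (2.68, 2.81 and 2.2) and all 3 day 14 arrays of the Lmx1a line (-2.24, -2.43 and -2.22) agreed closely. It differed by 2.62 ± 1.07 in the Olig2 line (adjusted p = 0.117) and by -3.63 ± 1.07 between day 14 and day 10 (adjusted p = 0.0559). The FGF8 wild type ran from -2.18 to 1.77.

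Of the proteoglycans, Prelp gave the largest difference of any member. Prelp, a leucine-rich protein that anchors basement membranes to connective tissue, stood at 5.75, 5.16 and 6.18 in the Lmx1a line at day 14 and at 0.03, 0.02 and 0.07 at day 10. Its start window (RefSeq, GRCm38.p6, chr1:133921352-133921651, minus strand) is shown for that reason, with its 1 CCAAT match in capitals.
Prelp: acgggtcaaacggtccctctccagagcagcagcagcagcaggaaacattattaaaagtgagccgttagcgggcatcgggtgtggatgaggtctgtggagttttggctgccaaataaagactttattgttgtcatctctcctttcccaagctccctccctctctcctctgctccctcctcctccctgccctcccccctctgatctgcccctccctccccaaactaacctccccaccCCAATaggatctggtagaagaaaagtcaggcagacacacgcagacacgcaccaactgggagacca
Prelp rose by 5.65 ± 0.63 from day 10 to day 14 (adjusted p = 8.02e-05), and a second probe set by 3.70. Outside day 14, the highest arrays were 2 of the Nkx2.2 line with RA, at 3.42 and 1.81, and replicate 3 of the RA wild type, at 2.00. The other 15 arrays lay at -0.29 to 0.62. The call was kept without any single array and in all 11 other settings tried. The mesenchymal marker mean lay at -0.55 to -0.45 at day 14 and 0.03 to 0.41 at day 10, so it was lower where Prelp was high. The pan-neuronal mean was lower at day 14 too, at -0.90 to -0.52 against -0.57 to 0.12, with 2 of the 12 called lower (Nefm by -2.72 and Nefl by -2.12). Mean deviations of meningeal and cartilage markers were higher at day 14. Their median differences were -0.04 and -0.08, against -0.05 over all genes. The mean of 9 meningeal markers lay at 0.71 to 0.99 at day 14 and 0.10 to 0.86 at day 10, with 1 called higher and 0 lower. That of 11 cartilage markers lay at 0.29 to 0.82 and 0.11 to 0.40, also with 1 called higher and 0 lower. The part of any of these cell types in the Prelp rise was not tested.

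Dcn, which codes for decorin and binds collagen I fibrils, stood at 1.81, 0.33 and 2.91 in the Nkx2.2 line under FGF8 and at -2.75, -1.69 and -3.18 in the FGF8 wild type. The RA wild type had 0.34, 3.53 and 3.19, the Nkx2.2 line under RA 1.62, 1.75 and 1.89, and the Olig2 line -1.78, -2.10 and -0.95. The Lmx1a line had -4.53, -3.65 and -0.68 at day 10 and 0.15, 0.51 and 0.00 at day 14, without overlap, but that difference of 3.18 ± 0.93 was not called (adjusted p = 0.0546). Dcn rose by 4.22 ± 0.93 in the Nkx2.2 line under FGF8 (adjusted p = 0.0123), by 4.64 ± 0.93 over the Lmx1a line (adjusted p = 0.00712) and by 4.89 ± 0.93 between the wild types (adjusted p = 0.00347). It fell by 3.96 in the Olig2 line (SE 0.93, adjusted p = 0.0085). Under RA the Nkx2.2 line differed from wild type by -0.60 ± 0.93 (adjusted p = 0.88), and its difference from wild type was lower than under FGF8 by -4.82 ± 1.32 (adjusted p = 0.0462). The call under FGF8 was lost without Nkx2.2 replicate 1 or wild-type replicate 1 or 3 (3.90 to 4.16, adjusted p 0.0512 to 0.0574), and a second probe set of Dcn stayed flat in all comparisons. The difference of effects was lost without any Nkx2.2 replicate under RA, RA wild-type replicate 2 or 3, or replicate 1 or 3 of either FGF8 group (-4.89 to -4.21, adjusted p 0.0582 to 0.117). Every Dcn call was lost in a fit of only the arrays compared (adjusted p 0.0525 to 0.142). The call over the Lmx1a line was also lost without the 3 arrays named for Col9a1 (3.79, adjusted p = 0.0658).

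Bgn and Lum code for biglycan and lumican, relatives of decorin in connective tissue. Bgn stood at -0.07, 4.87 and 3.52 in the RA wild type, at 2.95, 2.04 and 1.76 in the Nkx2.2 line under FGF8 and at -0.30 to 0.03 in the FGF8 wild type and the Olig2 line. It rose by 2.89 ± 0.89 between the wild types (adjusted p = 0.0485) and fell by 2.78 in the Olig2 line (SE 0.89, adjusted p = 0.0443), with overlap in both. Between the wild types the call was lost without RA replicate 2 or 3 or any FGF8 replicate (1.84 to 2.94, adjusted p 0.0958 to 0.229). Of 11 other settings tried, 2 kept this call. Robust moderation (adjusted p = 0.0511) and arrays centred on their median (adjusted p = 0.052) were among those that lost the call. In the Olig2 line it was lost without RA wild-type replicate 2 or 3 or any Olig2 replicate (-2.80 to -1.73, adjusted p 0.0932 to 0.221). Lum was called nowhere, though it stood at 3.00, 1.19 and 4.25 in the Nkx2.2 line under FGF8 and at -0.49, 4.38 and 3.44 in the RA wild type.

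Ogn, which codes for osteoglycin, stood at 2.28, 1.40 and 2.40 in the Nkx2.2 line under RA and at -1.94, 0.16 and 0.00 in the RA wild type. It rose by 2.62 ± 0.77 (adjusted p = 0.0177), without overlap, and a second probe set by 2.65. The call was lost without Nkx2.2 replicate 1 or 3 or wild-type replicate 1 (1.95 to 2.49, adjusted p 0.0546 to 0.0997). Fmod, fibromodulin, was highest in the Nkx2.2 line under FGF8 (2.94, 1.73 and 1.28) and at day 14 of the Lmx1a line (4.0, 2.64 and 0.37), with no call (2.00 ± 0.61, adjusted p = 0.0622, and 1.98 ± 0.61, adjusted p = 0.0657). All other arrays lay at -0.23 to 0.62. Omd was flat.

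**Figure D5:**
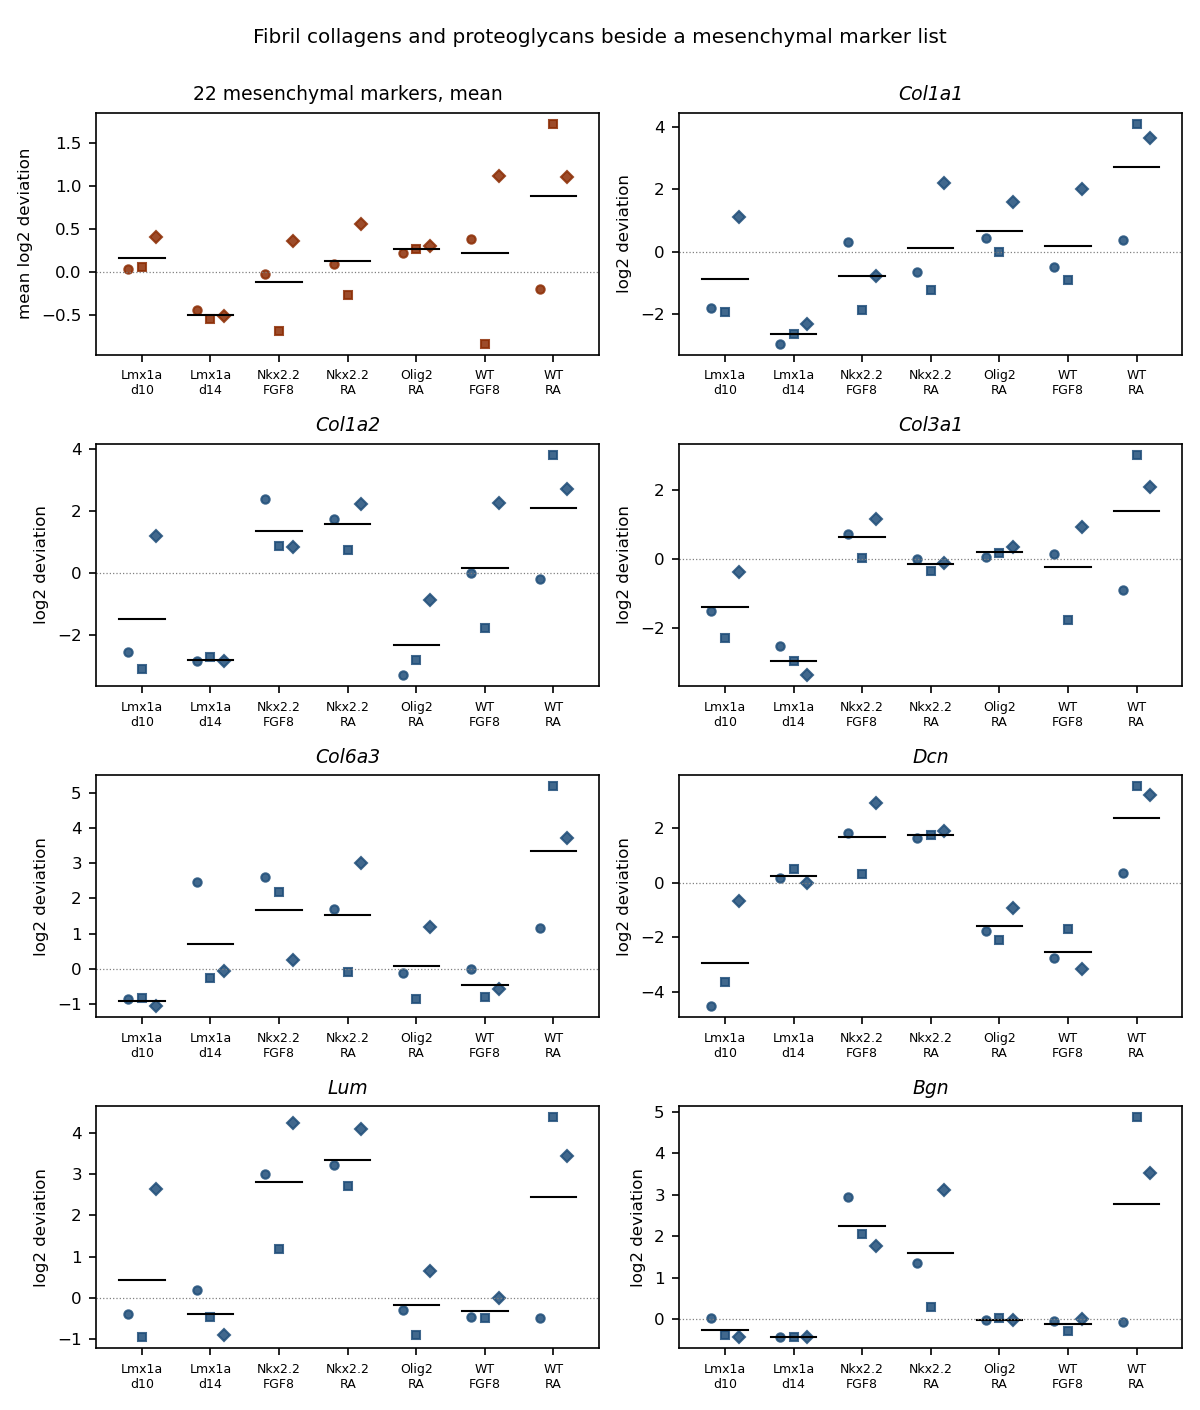
Mean log2 deviation of 22 mesenchymal and fibroblast markers and the log2 deviation of Col1a1, Col1a2, Col3a1, Col6a3, Dcn, Lum and Bgn, by array; circle, square and diamond are replicates 1, 2 and 3. In the RA wild type, replicates 2 and 3 lie above replicate 1 in all 8 panels.

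Markers of other cell types were set beside these results. Of the 22 mesenchymal and fibroblast markers, 4 (Snai1, S100a4, Meox1 and Meox2) spanned under 1 log2 unit. The mean of the list ran over the 3 arrays from -0.19 to 1.72 in the RA wild type, from -0.84 to 1.11 in the FGF8 wild type, from 0.22 to 0.30 in the Olig2 line, from -0.27 to 0.56 in the Nkx2.2 line under RA and from -0.68 to 0.36 under FGF8. Between the wild types 2 markers rose, Fbln5 (3.63, adjusted p = 0.00673) and the receptor Pdgfra (2.55, adjusted p = 0.0495). In the Olig2 line Prrx1 and Fbln5 fell by 2.73 and 2.35 while the protease Fap rose by 2.77, and in the Nkx2.2 line under RA Fbln5, Prrx1 and Fbln1 fell by 3.63, 2.71 and 2.44. Under FGF8 limma called 0 of the 22 in the Nkx2.2 line, where Dcn, Col6a1 and Col9a1 rose; at an unadjusted p under 0.05, 2 were higher and 3 lower. In the Lmx1a line Postn and Twist1 rose by 3.42 and 3.24 at day 10, where Col8a2 and Col22a1 were also called. At an unadjusted p under 0.05, 2 of the 22 were higher and 3 lower there. The list's median difference was 0.01, against 0.03 over all genes. Postn fell by 3.28 at day 14, as did Col8a2. The part of such cells in the member calls was not tested.

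In the RA wild type Col1a1, Col1a2, Col3a1, Col6a3, Dcn, Lum and Bgn were all lower in replicate 1 than in replicates 2 and 3, and so were Col12a1 (-0.11, 2.04 and 2.14), Col2a1, Col22a1 and Prelp. Col9a1 held to -2.09 to -1.84 in that group and Col25a1 to 1.58 to 2.23, but both spread elsewhere, Col9a1 from 2.49 to 5.29 in the Lmx1a line at day 14 and Col25a1 from -0.38 to 2.63 in the Nkx2.2 line under FGF8.

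Cartilage markers bear on Col9a1, Col2a1, Col9a3 and Col11a1. Of 11 measured, 3 (Matn1, Matn3 and Chad) spanned under 1 log2 unit, and in the Nkx2.2 line under RA 2 rose, Sox6 by 1.53 and Sox9 by 1.07, both also transcription factors of neural progenitors. Under FGF8 Sox5 rose by 2.95 and Cnmd, a cartilage glycoprotein, fell by 3.07. The list's mean lay at 0.17 to 1.63 in the Nkx2.2 line under RA, with replicate 3 the highest, and at -0.21 to -0.14 in the RA wild type. Floor plate markers moved with the same lines: 9 of 9 rose in the Lmx1a line at day 10 against wild type, Foxa2 by 5.15 among them. These 9 include Lmx1a (5.57), the factor the line is named for, so its rise there is not a separate sign of floor plate. In the Nkx2.2 line 6 rose under FGF8 and 7 under RA with 1 lower. Of 13 endothelial and pericyte markers, 8 (Pecam1 and Cldn5 among them) spanned under 1 log2 unit, and limma called 0 in the Nkx2.2 line under RA, where the collagen IV chains rose, with 1 lower at an unadjusted p under 0.05. The part of these cell types in the calls was likewise not tested.

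Markers of neural crest, meninges, radial glia and endoderm were set beside the same comparisons. Of 6 neural crest and Schwann markers, 1 (Sox10) spanned under 1 log2 unit. In the Nkx2.2 line 3 fell under RA (Tfap2a -5.91, Foxd3 -2.62 and Ngfr -2.35), against 9.16% of all genes. Under FGF8 2 fell (Tfap2a -4.08 and Ngfr -1.71), against 1.71% of all genes. Tfap2a fell by 4.29 in the Lmx1a line at day 10, while the Olig2 line had 2 higher and 2 lower and the RA wild type had Foxd3 and Tfap2a higher than the FGF8 wild type by 2.57 and 1.53. The mean of these markers was -0.58 to -0.35 in the Nkx2.2 line under RA and 1.49 to 1.65 in the RA wild type, without overlap.

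Of 9 meningeal markers, Zic1, also a factor of dorsal neural tissue, fell by 7.23, Aldh1a2, which makes retinoic acid, fell by 3.14 and Tbx18 rose by 1.10 in the Nkx2.2 line under RA, where the list's mean was -0.33 to 0.41 against 0.62 to 1.26 in the RA wild type. Zic1 also fell in the Nkx2.2 line under FGF8 (-5.31) and in the Olig2 line (-7.34), where Cemip rose by 1.88. Of 10 radial glia and progenitor markers, the transcription factor Pax6 fell in all 4 comparisons of a line with its wild type (-5.20 to -3.53). Sox1 and Sox2 rose by 2.68 and 1.78 in the Nkx2.2 line under RA. Between the wild types Slc1a3 was higher by 3.20 under RA, but 2 of the 10 were called lower. The list's median difference there was -1.01, against -0.05 over all genes. Of 12 endoderm and epithelial markers, 3 (Gata4, Afp and Apoa1) spanned under 1 log2 unit. Only Sox17 was called in any comparison, higher by 2.69 in the Nkx2.2 line under RA. At an unadjusted p under 0.05, 3 of the 12 were higher there and 0 lower. The list's mean there was -0.28 to 1.87, against -0.21 to 0.06 in the RA wild type. Under FGF8 it was -0.42 to 1.84 in that line and -0.43 to 0.81 in the wild type. The part of such cells in the collagen and proteoglycan calls was not tested.

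Genes that work with collagens moved in part. Of 15 partners of collagen IV in the basement membrane, 6 rose in the Nkx2.2 line under RA, where 8.84% of all genes rose, beside Col4a1, Col4a2 and Col4a5. The largest were the laminins Lama3 (3.85 ± 0.69) and Lamb1 (3.18 ± 0.81) and the nidogens Nid2 (2.96 ± 0.81) and Nid1 (2.51 ± 0.73). Their list's median difference was 0.22, against 0.01 over all genes. Under RA against FGF8 in that line 4 of the 15 rose, all laminins (Lama3, Lamb1, Lama1 and Lamc1), while Col4a1 (2.58 ± 0.75, adjusted p = 0.0504) and Col4a2 (1.59 ± 0.47, adjusted p = 0.0533) just missed the threshold. Lama3 also rose by 4.26 at day 14 of the Lmx1a line, where Prelp rose, but it was the only 1 of the 15 called higher and 1 was called lower. The median difference of the 15 there was -0.04, against -0.05 over all genes.

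Of 26 genes for collagen synthesis and processing, 2 rose in the Lmx1a line at day 10, 2 in the Nkx2.2 line under FGF8, 2 in the Olig2 line and 3 in the Nkx2.2 line under RA. Of all genes, 1.96%, 2.83%, 5.50% and 8.84% rose in these comparisons, so the last 2 counts lie near the background. P4ha3, a prolyl hydroxylase subunit needed for stable triple helices, rose by 3.25 ± 0.54 in the Lmx1a line at day 10 and by 2.47 ± 0.54 and 2.53 ± 0.54 in the Nkx2.2 line under FGF8 and RA. P4ha1 rose by 3.07 ± 0.55 and P4ha2 by 1.99 ± 0.61 in the Olig2 line, where 6 of the 7 called members were lower. Colgalt2, a galactosyltransferase acting on collagen, rose by 4.34 ± 0.50 in the Nkx2.2 line under RA and by 4.46 ± 0.50 at day 14 of the Lmx1a line. Lox, which cross-links collagen fibres, fell by 2.43 at day 14. Of 10 collagen receptors, the integrin chain Itgb1 rose in the Olig2 line (1.39) and the Nkx2.2 line under RA (1.57) and fell by 1.13 between the wild types. Adgrg1, a receptor for collagen III in the developing brain, fell by 3.03 in the Olig2 line, and the discoidin receptor Ddr2 rose by 2.14 between the wild types. The other receptors were called in no comparison, apart from Ddr1, lower by -2.03 in the Nkx2.2 line under FGF8 than in the Lmx1a line at day 10.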

How the data were processed

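The 21 samples were hybridised as biotin-labelled cRNA to an Affymetrix mouse expression array. The deposited log2 values come from GCRMA, per the submitters' processing notes; its version and settings are not given in the sources used here. As the values show, each probe set was further centred on its median over 27 arrays, 6 of them not analysed here. Probe sets were named from the platform annotation: of 45101, 34945 carried 1 symbol, 932 several and 9160 none, and 64 were controls. Values were analysed as they stand, without new normalization. limma 3.58.1 in R 4.3.3 was fitted to all 21 arrays with 1 mean per group, after a check on simulated data. Groups came from the labels. The number of arrays, 3 a group, limits the precision. In the main fit p-values rest on the spread within all 7 groups together, not only on that of the groups compared. Alternatives were other probe set choices, scaling, filters, moderation, blocks for the bioC split or the replicate number, and arrays left out.

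All called members are named, with up to 12 per comparison in values, and up to 4 called genes of each other list. Members and lists were chosen with earlier results of these data known. Promoter windows came from RefSeq, matched by symbol for 38 of 49 members.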

Additional observations from a re-analysis of the deposited data

Results flagged for a closer look

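For 3 members the difference of the Nkx2.2 line from wild type differed between RA and FGF8 in a direct limma test. The RA difference was lower by -4.82 for Dcn (adjusted p = 0.0462), by -4.14 for Col19a1 (adjusted p = 0.0312) and by -3.41 for Col26a1 (adjusted p = 0.00275). For Dcn the line stood above wild type by 4.22 under FGF8 and differed by -0.60 under RA. For Col19a1 the values were 3.01 and -1.14, and for Col26a1 0.67 and -2.74. Of 12 limma fits that each left out 1 array, the Dcn call was kept in 3, Col19a1 in 4 and Col26a1 in 12. With the bioC split in the fit, the Dcn and Col19a1 calls were lost (adjusted p = 0.0832 and 0.0704). Second probe sets of Dcn and Col26a1 stayed flat. The RA wild type was taken at day 8 and the other 3 groups at day 10, so treatment and day cannot be told apart.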

How the results depend on the processing

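Counts of members called moved with the samples, genes and probe sets used. With only the arrays compared, limma called 1 in the Lmx1a line at day 10 and 2 in the Nkx2.2 line under FGF8, 3 in the Olig2 line and 3 in the Nkx2.2 line under RA. That setting left 1 between days 14 and 10, 0 for the Nkx2.2 line between RA and FGF8, 1 between the Nkx2.2 and Lmx1a lines, 2 between the wild types and 1 in the difference of effects. With the bioC split as a block, the counts were 4 for the Olig2 line, 4 for the Nkx2.2 line between treatments (up from 1), 2 between lines, 4 between wild types and 1 in the difference of effects. Within the 12 arrays of high bioC, the counts were 1 in the Nkx2.2 line under FGF8, 0 in the Olig2 line, 2 for the Nkx2.2 line between treatments (neither the member called in all arrays), 0 between wild types and 0 in the difference of effects. No such fit was possible between the Nkx2.2 and Lmx1a lines under FGF8, which share no such batch. Testing only genes that span at least 1 log2 unit gave 8 in the Nkx2.2 line under FGF8, 7 between days and 4 between treatments. Leaving out 3 arrays together gave 1 in the Nkx2.2 line under FGF8, 3 between lines and 4 between wild types. The mean of all probe sets gave 5 between days and 2 between treatments, and probe sets without a suffix 0 between treatments. On the latter, Col26a1 turned to 0.039 in the Nkx2.2 line under RA, -0.20 between lines, -0.078 between wild types and 0.068 in the difference of effects. Leaving out 1 array at a time gave 2 to 4 for the Lmx1a line at day 10, 2 to 5 for the Nkx2.2 line under FGF8, 4 to 10 for the Olig2 line, 5 to 11 for the Nkx2.2 line under RA, 1 to 4 between days, 0 to 3 between treatments, 3 to 6 between lines, 4 to 12 between wild types and 1 to 6 in the difference of effects. Beyond fewer samples, fewer genes tested or another probe set, the cause was not tested. Same-numbered arrays did not deviate together on average (mean residual correlation 0.00603 over 63 pairs, from -0.350 to 0.385). The mean was -0.00337 over 126 pairs of different number. A mean near 0 with so wide a range cannot decide whether the numbers pair samples. The numbers partly follow the bioC split. In the Lmx1a line at day 14, the Olig2 line and the FGF8 wild type, replicates 1 and 2 were of low bioC and replicate 3 of high bioC. With the replicate block, 40 of 46 calls were kept, and the count for the Nkx2.2 line between treatments went from 1 to 2. Across settings no other call changed direction.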
